A study of Mus musculus with 20 samples.

Results

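The miR-199 and miR-214 microRNAs were followed across 20 mouse hearts as the 5 entries that carry their names in the deposited table, miR-199a-5p, miR-199a-3p, miR-199b-5p, miR-214-3p and miR-214-5p, of 1545 entries in all. They were chosen by name. The hearts came from C57BL/6J mice, a common inbred strain, and fell into 7 MI+CIH, 4 MI, 4 CIH and 5 sham hearts. MI is read here as myocardial infarction, the death of heart muscle after a coronary artery is blocked. CIH is read as intermittent hypoxia of a chronic kind, a model of sleep apnoea in which the oxygen that the animal breathes drops again and again. Age, sex, the time after surgery, the hypoxia protocol and the region of the heart that was sampled are not given in the sources used here. Small RNA was sequenced from frozen hearts, 1 library per numbered heart.

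A microRNA (miRNA) is cut from a hairpin, and either arm of the hairpin, named 5p or 3p, can be loaded into the Argonaute complex and guide it to messenger RNAs, mainly through the seed at its 5′ end. In the mouse, miR-199a and miR-214 are made from a shared transcript, Dnm3os, which the transcription factor Twist1 drives in mesenchymal cells, and in the adult heart they are known as miRNAs of fibroblasts and other stromal cells that increase in stressed or infarcted tissue. miR-214 is known in the mouse heart to restrain the sodium-calcium exchanger and so to limit calcium overload, miR-199a-5p to repress Hif1a in rat heart muscle cells, and miR-199b to act on calcineurin signalling in mouse heart muscle.

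The mature sequences are shown because they say which reads can be told apart. Capitals mark the seed, bases 2 to 8, and the sequences are from RefSeq on GRCm38.p6.
miR-199a-5p: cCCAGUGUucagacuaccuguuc
miR-199a-3p: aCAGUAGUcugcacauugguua
miR-214-3p: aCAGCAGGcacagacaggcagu
miR-214-5p: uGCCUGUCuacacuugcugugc

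The 4 seeds all differ, so the arms do not share a seed family with each other. miR-199b-5p is shown inside its hairpin, Mir199b (chr2:32318460-32318569, plus strand), where capitals mark bases 26 to 48, the stretch that aligns to miR-199a-5p.
Mir199b hairpin: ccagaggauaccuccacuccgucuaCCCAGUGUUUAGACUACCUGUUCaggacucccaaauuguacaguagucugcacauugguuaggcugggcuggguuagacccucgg

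Counted from 1 at the 5′ end of miR-199a-5p, that stretch carries the single difference C10U, outside the seed. How reads of miR-199a-5p and miR-199b-5p were assigned is not given in the sources used here, so part of either value can belong to the other, and how much was not measured. miR-199b-3p has the same whole sequence as miR-199a-3p and has no row of its own, so reads under miR-199a-3p can come from 3 hairpins. miR-761, which shares the seed of miR-214-3p, stood at 0 RPM in every heart.

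In the GENCODE M21 annotation of GRCm38, Mir199a-2 (chr1:162217814-162217923) and Mir214 (chr1:162223368-162223477) lie on the plus strand, 5444 bases apart, each in an exon of Dnm3os and opposite to an intron of Dnm3. Mir199a-1 (chr9:21496495-21496564, minus strand) lies opposite to an intron of Dnm2. Mir199b lies opposite to an intron of Dnm1. miR-199a-5p can therefore come from chromosome 1 or 9, and reads under miR-199a-3p from chromosome 1, 9 or 2. Both miR-214 arms come from chromosome 1, and miR-199b-5p comes from chromosome 2.

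Values are RPM, the reads of an entry per 1000000 reads assigned to all entries of the same library. Libraries held 1991323 to 18138415 reads and 624 to 925 entries with at least 1 read, and 1 read was worth 0.0551 to 0.502 RPM. Clustering on the other 355 tested miRNAs, without the 5 members, placed the libraries in 3 sets, for which the labels have no name. Set A held MI+CIH 1, MI 2, all CIH and all sham hearts, set B held MI+CIH 2 to 5, MI 1 and MI 3, and set C held MI+CIH 6, MI+CIH 7 and MI 4. Pearson r between libraries was 0.909 to 0.994 within sets and 0.718 to 0.932 between them. Sets B and C hold infarcted hearts alone, so the set and infarction can be told apart only through MI 2 and MI+CIH 1, and each comparison is given with and without the set as a term. In RNA of bulk heart tissue, more cells of a type and more of a miRNA per cell cannot be told apart, and a share of reads also moves when other miRNAs move.

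miR-199a-3p was the most abundant member in 17 of the 20 hearts, and over all hearts it averaged 1302 RPM and ranked 46th of 1545 entries. miR-214-3p averaged 490 RPM and ranked 68th, and miR-199a-5p averaged 382 RPM and ranked 75th. miR-199b-5p averaged 41.5 RPM and miR-214-5p 32.5 RPM, at ranks 178 and 190. All 5 passed the filter for testing, at least 5 RPM in at least 4 libraries.

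**Figure D1:**
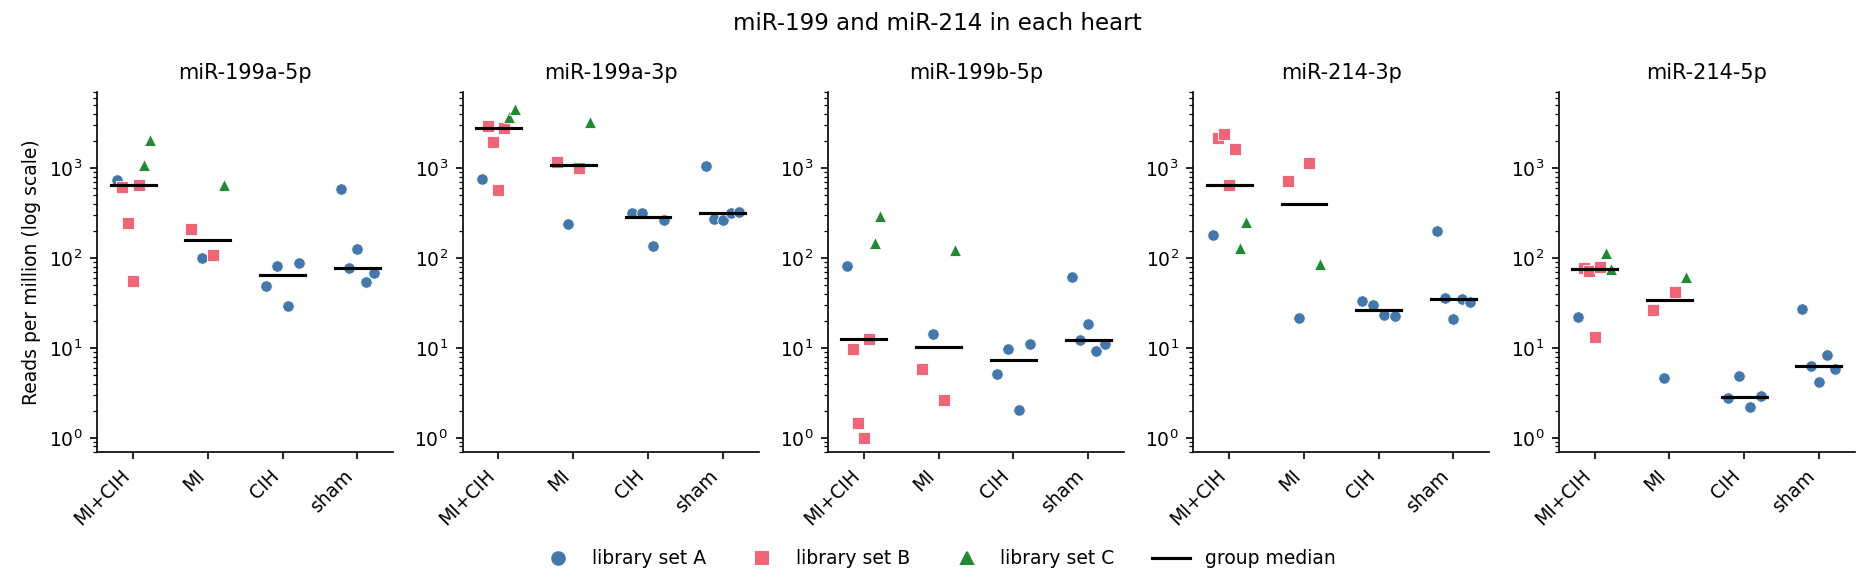
RPM on a log scale for each member, with 1 point per heart, groups along the x axis, marker shape for the library set and a bar at the group median. MI+CIH medians lie above CIH and sham medians for every member, though for miR-199b-5p only at 12.7 RPM against 7.38 RPM in CIH and 12.1 RPM in sham. The heart sham 1 is the highest sham heart for every member, and MI 2 is the lowest MI heart for every member but miR-199b-5p.

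miR-214-3p, the arm best studied in the heart, ran from 130 to 2407 RPM in MI+CIH hearts with a median of 643 RPM. MI hearts 1 to 4 had 708, 21.3, 1135 and 85.1 RPM. CIH hearts 1 to 4 had 33.0, 29.9, 23.2 and 22.4 RPM, and sham hearts 1 to 5 had 198, 35.5, 21.0, 35.3 and 32.4 RPM. The MI+CIH and CIH hearts did not overlap, whereas sham 1 stood above the 2 lowest MI+CIH hearts, MI+CIH 6 and MI+CIH 1, and MI 2 lay among the uninfarcted hearts. Mean levels were 1059 ± 989 RPM in MI+CIH (SD, n = 7), 488 ± 532 RPM in MI (n = 4), 27.1 ± 5.16 RPM in CIH (n = 4) and 64.5 ± 75.0 RPM in sham (n = 5). Within MI+CIH the 4 set B hearts held 643 to 2407 RPM and the other 3 hearts 130 to 248 RPM, so the spread inside the group followed the library set.

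miR-214-5p, the less abundant arm of the same hairpin, ran from 13.1 to 112 RPM in MI+CIH hearts with a median of 76.1 RPM. MI hearts 1 to 4 had 26.6, 4.62, 41.9 and 62.1 RPM. CIH hearts 1 to 4 had 2.79, 4.84, 2.22 and 2.95 RPM, and sham hearts 1 to 5 had 27.2, 6.21, 4.20, 8.24 and 5.86 RPM. Again MI+CIH lay wholly above CIH, and sham 1 lay in the range of infarcted hearts. The means were 64.4 ± 34.7 RPM in MI+CIH (SD, n = 7), 33.8 ± 24.3 RPM in MI (n = 4), 3.20 ± 1.13 RPM in CIH (n = 4) and 10.3 ± 9.54 RPM in sham (n = 5).

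miR-199a-3p, known from rat and mouse work to promote the division of heart muscle cells, ran from 565 to 4539 RPM in MI+CIH hearts with a median of 2786 RPM. MI hearts 1 to 4 had 1162, 241, 998 and 3209 RPM. CIH hearts 1 to 4 had 314, 313, 134 and 263 RPM, and sham hearts 1 to 5 had 1055, 273, 265, 319 and 323 RPM. MI+CIH lay wholly above CIH, and sham 1 alone kept MI+CIH and sham from separating. The means were 2454 ± 1466 RPM in MI+CIH (SD, n = 7), 1403 ± 1269 RPM in MI (n = 4), 256 ± 84.5 RPM in CIH (n = 4) and 447 ± 341 RPM in sham (n = 5).

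miR-199a-5p ran from 55.7 to 2035 RPM in MI+CIH hearts with a median of 649 RPM. MI hearts 1 to 4 had 209, 100, 107 and 641 RPM. CIH hearts 1 to 4 had 48.8, 81.0, 29.3 and 86.7 RPM, and sham hearts 1 to 5 had 590, 77.6, 126, 53.3 and 67.5 RPM. Here MI+CIH 4, the shallowest library, lay among the CIH and sham hearts, so neither pair of groups separated. The means were 774 ± 648 RPM in MI+CIH (SD, n = 7), 264 ± 256 RPM in MI (n = 4), 61.4 ± 27.2 RPM in CIH (n = 4) and 183 ± 229 RPM in sham (n = 5).

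miR-199b-5p ran from 1.0 to 294 RPM in MI+CIH hearts with a median of 12.7 RPM. MI hearts 1 to 4 had 5.89, 14.3, 2.66 and 121 RPM. CIH hearts 1 to 4 had 5.17, 9.59, 2.03 and 10.9 RPM, and sham hearts 1 to 5 had 61.5, 12.1, 18.2, 9.12 and 11 RPM. The groups overlapped throughout, and the MI+CIH hearts alone spanned more than the other 3 groups together. The lowest values rest on few reads. MI+CIH 3 had 3 reads (1.46 RPM, 95% exact binomial interval 0.302 to 4.27) and MI+CIH 4 had 2 reads (1.0 RPM, 0.122 to 3.63). These intervals cover counting error alone. The means were 78.1 ± 110 RPM in MI+CIH (SD, n = 7), 35.9 ± 56.8 RPM in MI (n = 4), 6.92 ± 4.08 RPM in CIH (n = 4) and 22.4 ± 22.1 RPM in sham (n = 5).

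The comparison of MI+CIH with sham asks how infarction and hypoxia together move the 5 members, and it gave higher levels of 4 of them. limma on log2(RPM + 1) put miR-214-3p 3.75 higher (SE 0.90, adjusted p 0.00299), miR-214-5p 2.54 higher (SE 0.61, adjusted p 0.00299), miR-199a-3p 2.37 higher (SE 0.61, adjusted p 0.00438) and miR-199a-5p 2.13 higher (SE 0.75, adjusted p 0.0224). miR-199b-5p differed by 0.29 (SE 1.09, adjusted p 0.827), less than its spread between hearts. The call of 4 of 5 stands against 52.2% of the 360 tested miRNAs called higher, and the median change of all 360 was 1.39. Relative to that median, miR-214-3p was 2.36 higher, miR-214-5p 1.15, miR-199a-3p 0.98 and miR-199a-5p 0.73 higher, and miR-199b-5p was at -1.10. On levels, 0 of 5 members separated MI+CIH from every sham heart, against 13.6% of the 360. Without sham 1, the highest sham heart for every member, miR-199a-3p, miR-214-3p and miR-214-5p separated, 3 of 5 against 24.7%.

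Median-of-ratios scaling, which removes the shift shared by all miRNAs, kept the call of miR-214-3p (2.37, SE 0.64, adjusted p 0.0121; 1 of 5 against 16.9%) and no other: miR-214-5p was then at 1.23 (adjusted p 0.0848), miR-199a-3p at 0.97 (adjusted p 0.182), miR-199a-5p at 0.74 (adjusted p 0.499) and miR-199b-5p at -0.84 (adjusted p 0.598). TMM scaling and edgeR on recovered reads also called miR-214-3p alone, against 14.2% and 14.4%, and DESeq2 called both miR-214 arms, against 29.2%. Of all limma calls in this comparison, 188 were higher and 16 lower without that scaling, and 61 were higher and 51 lower with it. With the library set as a term 0 members and 0 of 360 miRNAs passed in limma, 21 of the 360 and none of the members having an unadjusted p under 0.05. The changes were then 1.91 for miR-199a-5p, 1.33 for miR-199b-5p, 1.12 for miR-214-3p, 0.74 for miR-214-5p and 0.56 for miR-199a-3p. They moved with single hearts: without MI+CIH 1 they were 0.77, 0.05, -0.16, -0.16 and -0.08 in that order, and without sham 1 and MI 2 they were 3.25, 2.63, 2.51, 1.74 and 1.36 (limma adjusted p 0.0527 to 0.285), with 0 of 5 called in either. The miR-199a-5p call without the set term was lost without sham 4 (adjusted p 0.0604) and without sham 5 (adjusted p 0.0565).

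Against CIH, which asks what infarction adds under hypoxia, 4 of the 5 members were higher in MI+CIH. miR-214-3p rose by 4.46 (SE 0.96, adjusted p 0.00202), miR-214-5p by 3.71 (SE 0.65, adjusted p 0.000771), miR-199a-5p by 3.16 (SE 0.80, adjusted p 0.00381) and miR-199a-3p by 3.01 (SE 0.65, adjusted p 0.00202), while miR-199b-5p stood at 1.67 (SE 1.16, adjusted p 0.211). These 4 of 5 calls by limma stand against 54.7% of the 360 called higher, with a median change of 1.51 over all 360. On levels, miR-199a-3p, miR-214-3p and miR-214-5p, 3 of 5, were higher in every MI+CIH heart than in every CIH heart, against 27.8%. Under median-of-ratios scaling both miR-214 arms remained called, 2 of 5 against 13.6%, at 2.81 (adjusted p 0.00834) for miR-214-3p and 2.24 (adjusted p 0.0106) for miR-214-5p. TMM scaling and edgeR left these 2 as well, against 10.3% and 10.6%, and DESeq2 left 4, against 25.6%. All limma calls there were 49 higher and 48 lower, where they were 197 higher and 8 lower without the scaling. With the set as a term 0 members passed and 0 of 360, the changes being 2.94 for miR-199a-5p, 2.70 for miR-199b-5p, 1.91 for miR-214-5p, 1.83 for miR-214-3p and 1.2 for miR-199a-3p at adjusted p of 0.205 to 0.307. That fit rests on MI+CIH 1, the heart of set A that is both infarcted and hypoxic: without it the changes were 0.56 to 1.8. Without sham 1 and MI 2 the set term left 4 members called, miR-199a-5p, miR-199b-5p, miR-214-3p and miR-214-5p, against 5.57%. The comparisons with sham and with CIH share the MI+CIH hearts and are not independent.

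MI against sham asks for the effect of infarction without hypoxia, and 0 of 5 members passed in limma, as did 0% of the 360, 101 of which had an unadjusted p under 0.05. miR-214-3p was at 2.13 (SE 1.03, adjusted p 0.175), miR-214-5p at 1.46 (SE 0.70, adjusted p 0.175), miR-199a-3p at 1.36 (SE 0.70, adjusted p 0.192), miR-199a-5p at 0.74 (SE 0.86, adjusted p 0.513) and miR-199b-5p at -0.29 (SE 1.25, adjusted p 0.868), beside a median of 0.94 over all 360. The result turned on MI 2, whose 5 members summed to 382 RPM, where the other MI hearts held 2111 to 4118 RPM and the sham hearts 404 to 1932 RPM. Without MI 2, miR-214-3p rose by 3.18 (adjusted p 0.0213), miR-214-5p by 2.19 (adjusted p 0.0185) and miR-199a-3p by 2.03 (adjusted p 0.0308), 3 of 5 against 29.7% called higher. Without both sham 1 and MI 2 the same 3 rose by 3.71, 2.59 and 2.40 (adjusted p 0.0120, 0.00888 and 0.0143), against 30.1%. Those 3 also separated the other MI hearts from the other sham hearts, against 45.6%. For each of these 3, sham 1 was the highest sham heart and MI 2 the lowest MI heart. Leaving them out widens the difference by construction, so these calls and the separation only describe the other hearts. With the set as a term miR-214-3p, miR-214-5p and miR-199a-3p were at -0.17, -0.11 and -0.22, and miR-199a-5p and miR-199b-5p at 0.55 and 0.61 (adjusted p 0.996 each). With the set term and without sham 1 and MI 2 these were 1.64, 1.19, 0.79, 2.27 and 2.34 in the same order (adjusted p 0.619 to 0.880). Whether the labels of sham 1 and MI 2 were exchanged was not tested.

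MI+CIH against MI asks what hypoxia adds to infarction, and all 5 members were higher on average without passing the test. miR-214-3p was at 1.62 (SE 0.96), miR-199a-5p at 1.39 (SE 0.80), miR-214-5p at 1.08 (SE 0.65), miR-199a-3p at 1.01 (SE 0.65) and miR-199b-5p at 0.59 (SE 1.16), with limma adjusted p of 0.895 to 0.898 and 0 of 5 called. Without MI 2 alone the changes were 0.57 for miR-214-3p, 1.07 for miR-199a-5p, 0.35 for miR-214-5p, 0.34 for miR-199a-3p and 0.61 for miR-199b-5p (adjusted p 0.994 each). The share called among all 360 was 0%, 17 miRNAs or 4.72% had an unadjusted p under 0.05, and 80.3% had a positive change, so a positive sign in all 5 members is near the background. Both groups occur in every library set, which allows a comparison inside sets. There miR-199a-5p, miR-199a-3p, miR-214-3p and miR-214-5p were each higher in 6 of 7 MI+CIH hearts than in every MI heart of the same set. The exception was MI+CIH 4, and for miR-199b-5p MI+CIH 3 as well, which left 5 of 7. At least 6 of 7 hearts stood higher for 4 of 5 members and for 16.1% of the 360, and all 7 for 0 of 5 members and 4.44% of the 360. Adding the set term to limma left 0 of 5 called, against 0.556%.

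Exchanging labels within sets, the mean log2 difference was 1.30 for miR-214-3p (exact permutation p 0.0778), 1.36 for miR-199a-5p (0.156), 0.78 for miR-199a-3p (0.178), 0.85 for miR-214-5p (0.244) and 0.72 for miR-199b-5p (0.356). Adjusted over the 5 members these p were 0.296 to 0.356, and the 90 arrangements allow no p under 0.0111. Set A contributes 1 heart of each group to this test, MI+CIH 1 and MI 2. Leaving set A out, the differences were 0.87 for miR-214-3p, 0.98 for miR-199a-5p, 0.57 for miR-199a-3p, 0.55 for miR-214-5p and 0.29 for miR-199b-5p, with exact permutation p of 0.156 to 0.689.

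CIH against sham asks for the effect of hypoxia without infarction, and here every member was lower on average. The changes were -1.37 for miR-199b-5p (SE 1.25), -1.17 for miR-214-5p (SE 0.70), -1.03 for miR-199a-5p (SE 0.86), -0.71 for miR-214-3p (SE 1.03) and -0.64 for miR-199a-3p (SE 0.70), all at a limma adjusted p of 0.998. No member passed, nor did any of the 360 (0%, with 1 at an unadjusted p under 0.05). A positive change was seen in 0 of 5 members and in 27.8% of all 360, whose median was -0.21. Without sham 1 and MI 2 the members' changes shrank to between -0.92 for miR-199b-5p and -0.18 for miR-214-3p, with the same adjusted p. The set term left the changes over all hearts as they were, at a limma adjusted p of 0.845 each. With it miR-214-5p and miR-199b-5p had an unadjusted p under 0.05, 2 of 5 against 15 of the 360 or 4.17%. Without sham 1 and MI 2 as well, these p were 0.109 and 0.130 (adjusted 0.994). The sum of the 5 members was 355 ± 111 RPM in CIH (SD, n = 4), 727 ± 674 RPM in sham (n = 5) and 426 ± 15.5 RPM in sham without sham 1 (n = 4). Among CIH hearts, CIH 3 was the lowest for 4 members, miR-214-3p being the exception, and its sum was 191 RPM.

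The interaction, the difference of MI+CIH from CIH minus the difference of MI from sham, was positive for all 5 members, from 1.65 for miR-199a-3p to 2.41 for miR-199a-5p, against 81.1% of all 360. limma called 0 of 5 and 0% of the 360 (14 at an unadjusted p under 0.05), at an adjusted p of 0.880 for each member. With the set as a term the values lay close by, from 1.42 for miR-199a-3p to 2.39 for miR-199a-5p (limma adjusted p 0.185 to 0.232). All 5 members then had an unadjusted p under 0.05, against 66 of the 360 or 18.3%. After adjustment 0 of 5 and 0% of the 360 passed. Without sham 1 and MI 2, and with no set term, the values lay between 0.61 for miR-199a-3p and 1.53 for miR-199b-5p. With the set term and without these hearts they lay between 0.84 for miR-199a-3p and 1.42 for miR-199a-5p.

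**Figure D2:**
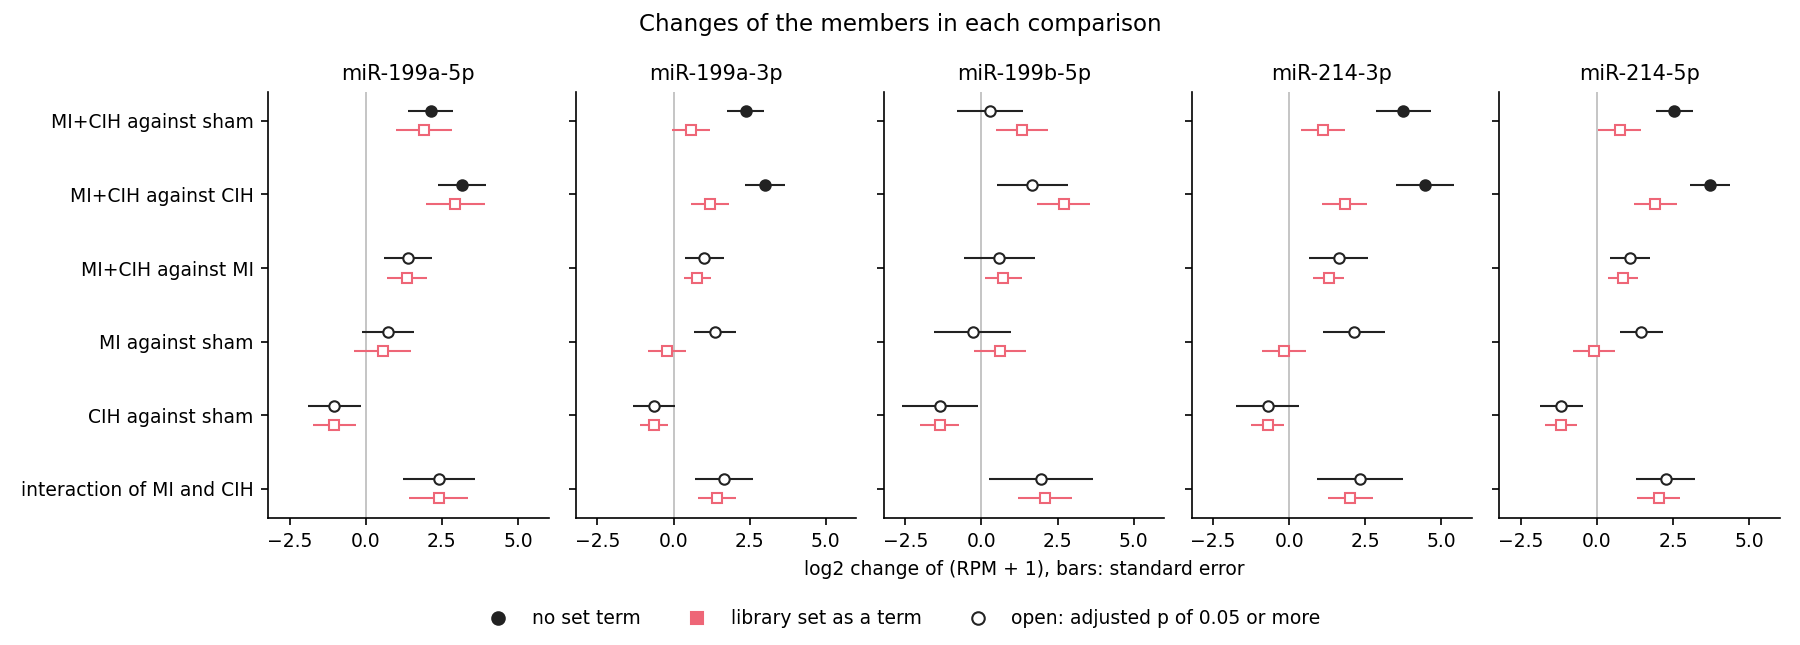
log2 change of (RPM + 1) for each member in the 6 comparisons, with standard errors, without (circles) and with (squares) the library set as a term; filled markers have an adjusted p under 0.05. Filled markers occur for 4 members in MI+CIH against sham and against CIH without the set term, and for none with it.

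Inside set A, 2 hearts, MI+CIH 1 and sham 1, stood high for all members. In MI+CIH 1 the members were 2.76 (miR-199a-3p) to 9.55 (miR-199a-5p) times the median of the 9 other hearts of set A. In sham 1 they were 3.87 (miR-199a-3p) to 7.61 (miR-199a-5p) times that median. Both hearts exceeded the highest of those 9 for every member, by 2.33 times or more. These hearts were singled out because they stood high. How many of the other tested miRNAs did the same was not counted, so the pattern is not shown to be particular to the members. The sums of the 5 members were 1775 RPM in MI+CIH 1 and 1932 RPM in sham 1, and the 9 others held 191 to 439 RPM. The summed heart muscle miRNAs, 6 of 6 in the table, moved the other way, with 183632 RPM in MI+CIH 1 and 193658 RPM in sham 1, and 253332 to 317859 RPM in the 9 others. Leukocyte miRNAs, 5 of 5 in the table, summed to 527 RPM in MI+CIH 1 and 421 RPM in sham 1, inside the 207 to 652 RPM of the 9 others. Endothelial miRNAs, 2 of 2, summed to 6497 RPM in MI+CIH 1 and 8503 RPM in sham 1, and to 5976 to 10970 RPM in the 9 others. Smooth muscle and mural miRNAs, 4 of 4, were above the others in both, at 254608 RPM in MI+CIH 1 and 261534 RPM in sham 1, with 134671 to 246659 RPM in the 9 others. So was the sum of the profibrotic list, 5 of 5 in the table, at 109137 RPM in MI+CIH 1 and 101357 RPM in sham 1, with 14018 to 29568 RPM in the 9 others. The sum of the antifibrotic list, 8 of 8 in the table, was above the others in both as well. It was at 21575 RPM in MI+CIH 1 and 22968 RPM in sham 1, with 6701 to 20703 RPM in the 9 others. Erythrocyte miRNAs, 3 of 3, were at 1396 RPM in MI+CIH 1 and 568 RPM in sham 1, with 1001 to 3807 RPM in the 9 others. Such a sum can move through its most abundant miRNA alone. Over all hearts miR-21a-5p reached 108142 RPM, and no other profibrotic miRNA passed 17046 RPM. In the heart muscle, smooth muscle and endothelial lists miR-1a-3p reached 314224 RPM, miR-143-3p 269317 RPM and miR-126a-3p 49894 RPM. No other miRNA of those lists passed 23097, 4813 and 1821 RPM in that order. The part that cell content has in the levels of sham 1 and MI+CIH 1 was not tested.

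The make-up of the 5 members differed between library sets in miR-214-3p and miR-199b-5p, whose shares in set B did not overlap those in sets A and C. miR-214-3p made 4.84% to 12.1% of the reads of the 5 members in set A and 2.07% to 3.45% in set C, but 31.5% to 51.6% in set B. miR-199b-5p made 1.06% to 4.56% in set A and 2.86% to 4.09% in set C, but 0.0314% to 0.279% in set B. miR-214-5p stayed at 0.692% to 2.17% in all 3 sets. The order of the members followed the set. It was miR-199a-3p, miR-199a-5p, miR-214-3p, miR-199b-5p, miR-214-5p in 10 of the 11 hearts of set A. In all 6 set B hearts miR-214-3p stood above miR-199a-5p and miR-199b-5p was last, with miR-214-3p first in 3 of them. In all 3 set C hearts miR-199b-5p stood above both miR-214 arms.

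**Figure D3:**
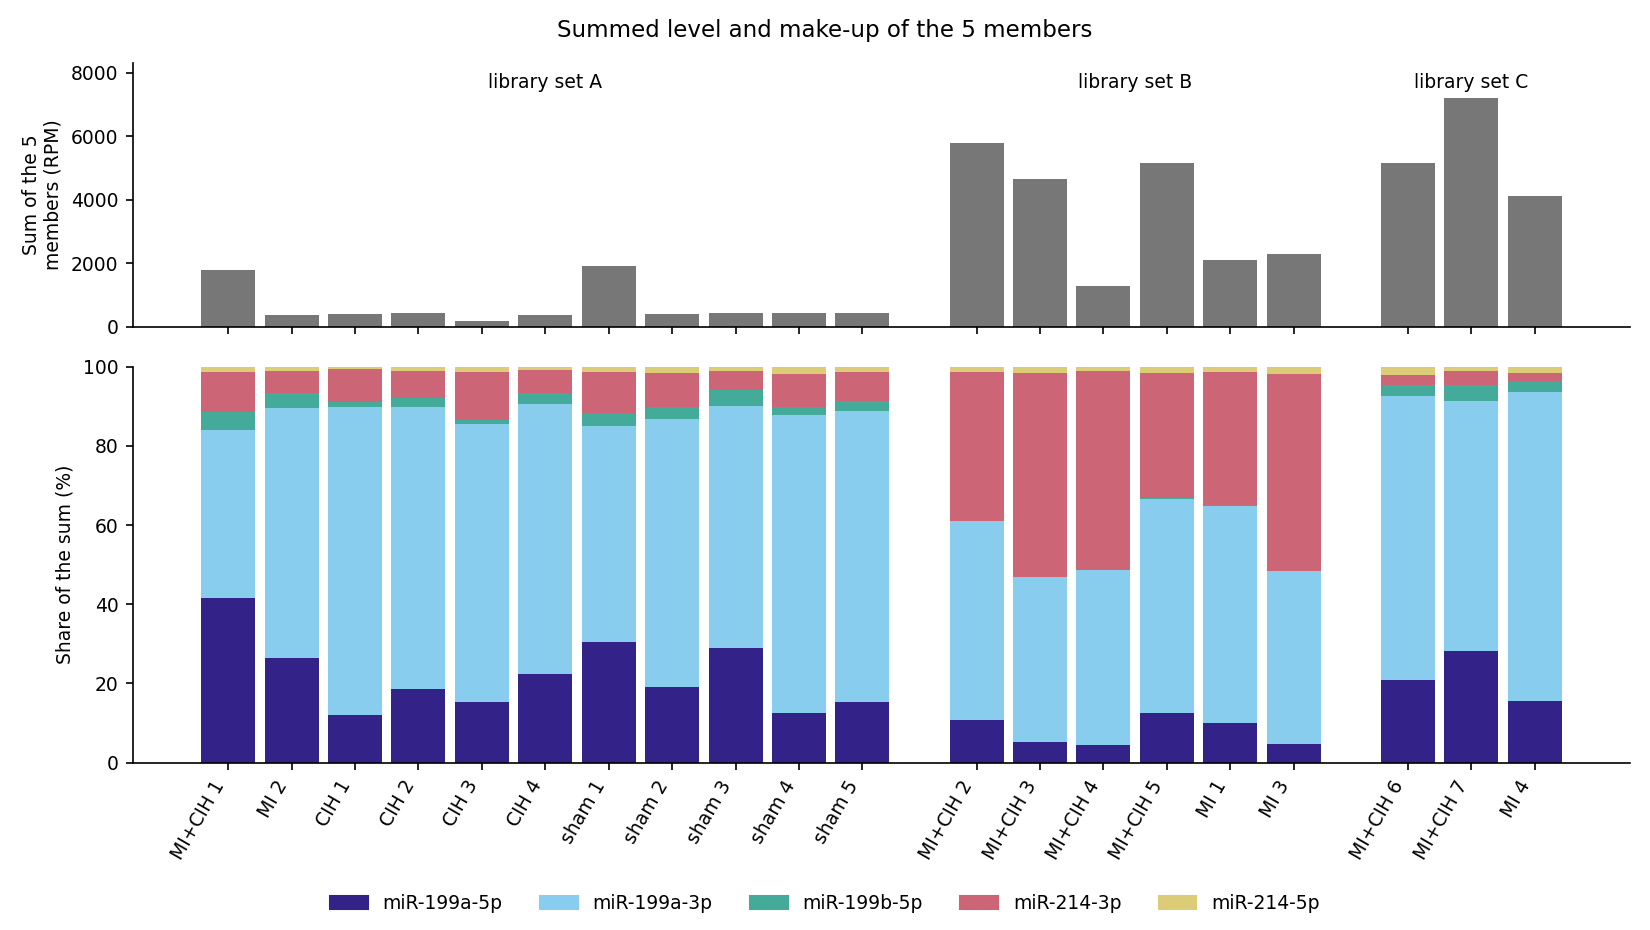
Sum of the 5 members in RPM (upper bars) and the share of each member in that sum in percent (lower stacked bars) for the 20 hearts, ordered by library set and, within a set, by group. miR-214-3p takes 31.5% to 51.6% in set B and at most 12.1% elsewhere, and MI+CIH 1 and sham 1 have the 2 tallest sums in set A.

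Ratios between members inside a heart were taken on RPM + 1, where scaling and the pseudocount still move those of low members, so the ratios of RPM alone stand beside them where they differ most. The arms of the miR-214 hairpin stood at log2 ratios (3p over 5p, of RPM + 1) of 1.97 to 3.16 in set A and 0.21 to 1.69 in set C, and of 4.34 to 5.52 in set B. In RPM alone miR-214-3p was 20.4 to 49.2 times miR-214-5p in set B, 4.28 to 11.8 times in set A and 1.16 to 3.26 times in set C, although both come from a single hairpin. The miR-199a arms had log2 ratios (3p over 5p) of 0.02 to 2.66, 2.10 to 3.32 and 1.16 to 2.32 in sets A, B and C, which overlap. miR-199b-5p over miR-199a-5p, a pair that differs by a single base, had log2 ratios of -3.32 to -2.42 in set A and -2.86 to -2.40 in set C, with -6.63 to -4.82 in set B. In RPM alone these log2 ratios were -3.85 to -2.55 in set A, -2.87 to -2.41 in set C and -7.38 to -5.15 in set B. miR-214-3p over miR-199a-5p ran from -2.53 to -0.32 in set A and from -3.04 to -2.90 in set C, and was positive in set B at 1.32 to 3.50.

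Among 86 hairpins with both arms measured, the difference in arm ratio between sets B and C was 4.07 for miR-214, 8th by size, and 0.97 for miR-199a, 53rd by size. The median size was 1.43, and 46 of the 86 hairpins, 53.5%, did not overlap between these sets, so a shift between B and C is common among hairpins and not particular to miR-214. The sets were defined from these data and their differences are given without a test. What the sets stand for, a library batch or a feature of the hearts, was not tested.

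**Figure D4:**
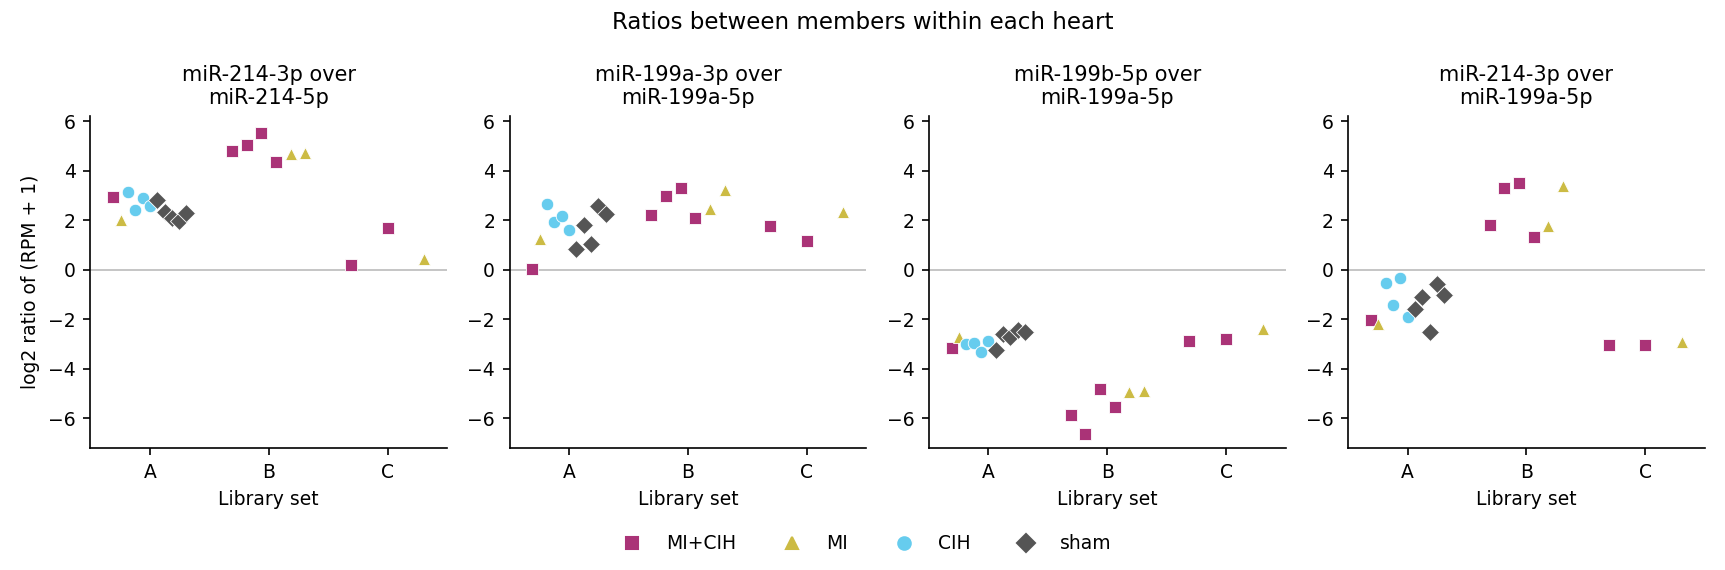
log2 ratios of (RPM + 1) between pairs of members, with 1 point per heart, library sets along the x axis and markers for the groups. The miR-214 arm ratio separates the 3 sets, and hearts of different groups lie together inside a set.

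No ratio passed a test between groups inside sets after adjustment. For MI+CIH against MI the mean differences in log2 ratio, labels exchanged within sets, were -0.64 for miR-199b-5p over miR-199a-5p (exact permutation p 0.0778, adjusted over 4 ratios 0.311; 0.0444 and 0.178 with a pseudocount of 0.5 RPM), -0.57 for miR-199a-3p over miR-199a-5p (p 0.156), 0.44 for miR-214-3p over miR-214-5p (p 0.256) and -0.06 for miR-214-3p over miR-199a-5p (p 0.778). For CIH against sham, all in set A, they were 0.46 for the miR-214 arms (exact permutation p 0.0794, adjusted 0.222), -0.34 for miR-199b-5p over miR-199a-5p (p 0.111), 0.39 for the miR-199a arms (p 0.381) and 0.32 for miR-214-3p over miR-199a-5p (p 0.556).

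Several pairs of members varied together from heart to heart inside a set, among 20 relations computed. After adjustment fewer of the 20 passed by Spearman rho than by Pearson r. Only some pairs are given here. How often other tested miRNAs vary together inside a set was not counted, so this is not shown to be particular to the members. In set A (n = 11), log2 levels of miR-199a-5p and miR-199b-5p had a Pearson r of 0.98 (permutation p 2.00e-05, adjusted 0.000400) and a Spearman rho of 0.93 (permutation p 0.000160, adjusted 0.00320), and r was 0.95 without sham 1 and MI+CIH 1. How reads of this pair, which differ by a single base, were assigned is not known. The miR-214 arms in set A had r 0.93 (permutation p 0.00210, adjusted 0.00840) and rho 0.75 (p 0.0120, adjusted 0.0556), and r 0.56 without those hearts. miR-199a-5p with miR-214-3p had r 0.86 (permutation p 0.0289, adjusted 0.0445) and rho 0.10 (p 0.775). Its r turned to -0.32 without those hearts, so that relation rests on sham 1 and MI+CIH 1. miR-199a-3p had rho 0.80 with miR-214-3p and 0.78 with miR-214-5p (adjusted permutation p 0.0444 each). Without those hearts r was 0.55 and 0.61 for these pairs. The remaining miR-199 to miR-214 pairs in set A had rho of 0.23 to 0.63, which did not pass. In set B (n = 6), miR-199a-5p and miR-199a-3p had r 0.98 (exact permutation p 0.00556, adjusted 0.0139) and rho 0.94 (p 0.0167, adjusted 0.0556), with r 0.94 without MI+CIH 4 and MI+CIH 5. The miR-214 arms there had r 0.93 (exact permutation p 0.0167, adjusted 0.0333) and rho 0.77 (p 0.103, adjusted 0.155), with r 0.80 without MI 1 and MI+CIH 4. Set C holds too few hearts for a correlation.

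After the mean of each set was taken off, the miRNAs most like the mean of the 5 members over 20 hearts were miR-455-5p (Pearson r 0.95), miR-31-5p (0.94), miR-300-3p (0.93), miR-140-3p (0.93) and miR-341-3p (0.92). Without sham 1 and MI+CIH 1, over 18 hearts, r was 0.91, 0.88, 0.86, 0.89 and 0.88 in the same order. All points share the libraries and their scaling, so these values are a description. All 5 stood high in the same pair of hearts as the members, which a choice by likeness to the members favours. miR-455-5p was at 90.1 RPM in MI+CIH 1 and 79.8 RPM in sham 1, against 14.6 to 26.2 RPM in the other sham hearts. miR-140-3p, the most abundant of them and best known from cartilage, was at 5394 RPM in MI+CIH 1 and 4026 RPM in sham 1, against 1252 to 1707 RPM in the other sham hearts.

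Other miRNAs with known roles in fibrosis moved in part with the members. Of 5 listed as profibrotic, 4 were tested, and in MI+CIH against sham 3 of them were higher. miR-125b-5p rose by 2.67 (SE 0.65, limma adjusted p 0.00311), miR-155-5p, an inflammatory miRNA of leukocytes, by 2.72 (SE 0.68, adjusted p 0.00341) and miR-34a-5p, a target of p53, by 1.47 (SE 0.50, adjusted p 0.0196). The median of the list was 2.07, against 1.39 for all 360 and 52.2% called higher. Against CIH the same 3 passed, at 2.67, 2.79 and 2.06. miR-21a-5p, the fourth, did not pass in either.

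Of 8 listed as antifibrotic, all tested, 2 were higher and 3 lower in MI+CIH than in sham, against 52.2% higher and 4.44% lower of the 360, with a list median of -0.02. miR-133a-3p rose by 1.6 (adjusted p 0.0150) and miR-24-3p by 1.07 (adjusted p 0.0254), while miR-101a-3p fell by 2.97 (adjusted p 0.00311), miR-101b-3p by 2.03 (adjusted p 0.0121) and miR-29c-3p, a repressor of collagen genes, by 1.82 (adjusted p 0.0172). Against CIH 3 were higher, miR-30c-5p (1.21), miR-133a-3p (1.85) and miR-24-3p (1.17), and 1 was lower, miR-101a-3p (-2.31), against 54.7% higher and 2.22% lower of the 360. In the other 4 comparisons, and in all 6 with the set as a term, 0 miRNAs of either list passed. Unlike those of the members, the calls of these lists were not looked at under median-of-ratios or TMM scaling.

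Markers of other cells were read beside these changes, and in MI+CIH against sham their counts stand against 52.2% higher and 4.44% lower of the 360. These calls, too, were not looked at under median-of-ratios or TMM scaling. The sums of the lists are weighted to the most abundant miRNA of a list, as above. Heart muscle miRNAs summed to 88544 to 269655 RPM in MI+CIH, 164469 to 301150 in MI, 253332 to 317859 in CIH and 193658 to 278868 in sham. Of the 6, 4 fell and 1 rose in MI+CIH against sham, miR-499-5p falling by 1.84 (adjusted p 0.00272) and miR-133a-3p rising as above. Leukocyte miRNAs summed to 361 to 1930 RPM in MI+CIH, 207 to 1599 in MI, 248 to 505 in CIH and 281 to 652 in sham, with 2 of 5, miR-223-3p and miR-155-5p, higher in MI+CIH than in sham, a share below that background. By set they were 207 to 652 RPM in A, 1209 to 1930 in B and 325 to 640 in C, so that in set B high leukocyte miRNAs and a high share of miR-214-3p occurred together. Erythrocyte miRNAs, 3 of 3, summed to 1396 to 15221 RPM in MI+CIH, 1001 to 7127 in MI, 1087 to 2450 in CIH and 568 to 3807 in sham, with miR-486a-5p higher and miR-144-3p lower in MI+CIH than in sham. Endothelial miRNAs summed to 3162 to 50262 RPM in MI+CIH, 5397 to 47505 in MI, 5976 to 10970 in CIH and 8459 to 10682 in sham, and miR-126a-5p was lower in MI+CIH than in sham (-1.53, adjusted p 0.00539). Smooth muscle and mural miRNAs, 4 of 4, summed to 33916 to 272889 RPM in MI+CIH, 26340 to 196229 in MI, 134671 to 246659 in CIH and 199075 to 261534 in sham, and miR-145a-5p was higher in MI+CIH than in sham (1.65, adjusted p 0.00517). By set, endothelial miRNAs summed to 5976 to 10970 RPM in A, 3162 to 7513 in B and 24768 to 50262 in C, and smooth muscle and mural miRNAs to 134671 to 261534 RPM in A, 130673 to 272889 in B and 26340 to 42114 in C. Heart muscle miRNAs were 183632 to 317859 RPM in A, 88544 to 184859 in B and 241682 to 295668 in C, and erythrocyte miRNAs 568 to 3807 RPM in A, 5072 to 15221 in B and 2393 to 3047 in C. Set C thus stood apart in endothelial and smooth muscle miRNAs and had the highest set median of every member but miR-214-3p. The part of these cells in the levels of the members was not tested. No list of fibroblast miRNAs other than the members was available to check a fibroblast origin.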

How the data were processed

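Small RNA libraries of 20 hearts were analysed from a table that the authors deposited as TPM. By its values it holds RPM, scaled by the authors to the reads of all entries: every column sums to 1000000 and 100% of values are whole multiples of 1 read (tolerance 0.05), so reads were recovered. Per the labels' protocols, frozen hearts gave Trizol RNA for a NEBNext small RNA library. The build, per the submitters' processing notes, was mm10 and the tools Bowtie and DESeq 1.8.3; the miRNA release and the rule for reads that match several entries are not given in the sources used here.

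limma 3.58.1 (R 4.3.3, with a trend) was fitted to log2(RPM + 1) with 4 group means over 20 libraries (16 residual degrees of freedom, prior 5.90; 14 and 5.34 with library set), for the 360 miRNAs that reached 5 RPM in 4 or more libraries (99.92% of reads or more), two-sided, adjusted by Benjamini-Hochberg over all 360 at 0.05. A fold change on this scale understates that of low miRNAs. Groups were compared by exact permutation in member levels (MI+CIH against MI) and in ratios, the latter for CIH against sham with scipy 1.17.1. Fits were tested on simulated data. Alternatives were pseudocounts of 0.5 and 5 RPM, other filters, median-of-ratios and TMM scaling, library set as a term, a block for the replicate number, leaving out each library, and edgeR 4.0.16 and DESeq2 1.42.0 on the recovered reads. Fits with library set plus other scaling or fewer hearts were added after seeing the data.

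The members and all lists (profibrotic, antifibrotic, heart muscle, endothelial, smooth muscle and mural, leukocyte, erythrocyte) were chosen with earlier results of these data known. Named besides the members were miRNAs of these lists past the threshold, the 5 most like the members' mean, miR-199b-3p, and, after their values were seen, miR-21a-5p and miR-761. The labels number the hearts without saying that they are from separate animals, so p-values measure the spread between these samples. Same-numbered hearts of different groups did not deviate together (10 of 25 pairs with r over 0.1), so numbers were not used as pairs.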

Additional observations from a re-analysis of the deposited data

Results flagged for a closer look

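miR-199a-3p in sham 1, at 1055 RPM, stood far from the other 4 sham hearts, at 265 to 323 RPM. On log2(RPM + 1) its gap to the nearest took 0.857 of the group's range, where 0.71 is the limit for 5 values. miR-214-3p in sham 1, at 198 RPM, did so with 0.771 on that scale, the others being at 21.0 to 35.5 RPM. Both values are of the same library. The other members were also highest in sham 1 among sham hearts, but stayed under the limit on that scale. In all, 36 groups of values were looked at, and chance alone picks out about 1 in 20 such groups.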

How the results depend on the processing

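Depth limited miR-199b-5p most, with 2 and 3 reads in MI+CIH 4 and MI+CIH 3. The calls of the members depended on scaling and on the library set, and the cause was not tested. In MI+CIH against sham, where limma called 4, median-of-ratios and TMM scaling and edgeR on recovered reads each called 1 (miR-214-3p), DESeq2 called 2 (both miR-214 arms), and every fit with the library set as a term called 0: alone, with median-of-ratios scaling, without sham 1 and MI 2, and without MI+CIH 1. In MI+CIH against CIH the 4 calls became 2 (both miR-214 arms) with median-of-ratios scaling, TMM and edgeR, and 0 with the set as a term alone, with median-of-ratios scaling and without MI+CIH 1, while without sham 1 and MI 2 the set term left 4. In MI against sham 0 calls became 3 without MI 2, the lowest MI heart for those members, and 3 without MI 2 and sham 1, their highest sham heart. Leaving out each library gave 0 to 3 members called in MI against sham, 3 to 4 in MI+CIH against sham, 4 in MI+CIH against CIH and 0 in the rest.

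The direction of miR-199b-5p was not stable. Against sham, its MI+CIH change was -0.84 with median-of-ratios scaling, -1.0 with TMM, -1.0 with a replicate block and -0.33 to 0.87 when single hearts were left out (-0.02 without MI+CIH 1, -0.16 without MI+CIH 6, -0.33 without MI+CIH 7). Its MI change was 0.61 with the set term, 0.68 with that and median-of-ratios scaling, 2.34 with the set term and without sham 1 and MI 2, 0.24 in DESeq2, 0.14 without sham 1 and MI 2, and -1.31 to 0.38 when single hearts were left out (0.15 without sham 1, 0.07 without MI 1, 0.38 without MI 3). Its change in MI+CIH against MI was -0.71 with a replicate block and -0.08 to 1.6 when single hearts were left out (-0.08 without MI 3, -0.04 without MI+CIH 7).

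The MI change against sham turned for other members too. For miR-199a-5p it was -0.18 with median-of-ratios scaling, -0.38 with TMM, -0.33 in edgeR, -0.06 in DESeq2 and -0.21 with the set term and without MI+CIH 1. With the set term it was -0.22 for miR-199a-3p, -0.17 for miR-214-3p and -0.11 for miR-214-5p; with median-of-ratios scaling added -0.13, -0.08 and -0.03; without MI+CIH 1 -0.65, -1.02 and -0.71; and without sham 1 and MI 2 the other way, 0.79, 1.64 and 1.19. Without MI+CIH 1 and with the set term MI+CIH against sham was -0.08 for miR-199a-3p, -0.16 for miR-214-3p and -0.16 for miR-214-5p.

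The replicate block, whose numbers do not pair the hearts (4 of 20 libraries correlated best with their own number), also ended the call of miR-199a-5p in MI+CIH against sham (1.51, adjusted p 0.0967) and changed no other call of a member. The other pseudocounts and filters reversed no member's change.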
